A study of Mus musculus with 2 samples.

Results

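The nuclear oxidative phosphorylation genes are the part of the mitochondrial respiratory machinery that is encoded in the nucleus. They were chosen by symbol, as autosomal protein-coding genes of GENCODE release M21 starting with Nduf, Uqcr, Atp5 or Cox4 to Cox8, with Sdha, Sdhb, Sdhc, Sdhd, Cyc1 and Cycs added. The rule gave 92 genes of 20780 autosomal protein-coding gene symbols. They were 42 genes of complex I (7 core subunits, 27 accessory subunits and 8 assembly factors), 4 of complex II, 9 of complex III, 1 for cytochrome c, 19 of complex IV and 17 of complex V. The groups were assigned by hand, and a gene counted with a complex need not be a subunit of it. Values are from DNase-seq, in which DNase I cuts accessible chromatin in nuclei and the cut ends are sequenced. Both libraries were frontal cortex of male B6CASTF1/J mice aged 14 days, the first-generation hybrid of the inbred strains C57BL/6 and CAST. Each library was made from tissue of 3 males, and the libraries form 1 group with nothing to compare it with, labelled biological replicates 1 and 2. Their donor number is the same, so part or all of the difference between them may be technical. Whether the libraries come from separate animals is not clear, so an SD over them may not measure variation between animals. No gene was deleted and no treatment is named in the labels.

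The respiratory chain passes electrons from NADH through complex I, or from succinate through complex II, to ubiquinone, then through complex III and cytochrome c to complex IV, which reduces oxygen. Complexes I, III and IV pump protons across the inner mitochondrial membrane, and complex V, the ATP synthase, uses that gradient to make ATP. Complex II is built from nuclear genes only, while the other complexes join nuclear subunits to a few from mitochondrial DNA. Neurons depend heavily on this pathway, and NRF1, the ETS family factor GABP, YY1 and SP1 are known to act on promoters of its nuclear genes.

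A promoter here reaches 1000 bp up- and downstream of each annotated start of a gene, and a gene is called open when each library had a peak of its longer peak list there. The height of a promoter is the authors' deposited signal value of its highest peak, set on a scale of each library. The longer lists held 75753 peaks in replicate 1 and 77035 in replicate 2. The deposited footprints, short stretches protected from DNase I inside open chromatin, numbered 156390 in replicate 1 and 202779 in replicate 2, with a median width of 10 bp. As a check of the tissue label, 6 of 7 markers of excitatory neurons were open in both libraries, against 60.8% of all genes, and Slc17a7 was open in replicate 2 alone. Camk2a was 3.48 and 3.54 high, while Tbr1 at 1.31 and 0.993 and Emx1 at 1.04 and 0.967 were low. The same count was 2 of 5 for astrocytes, 1 of 4 for autosomal markers of oligodendrocytes, 1 of 5 for microglia and 3 of 6 for heart and skeletal muscle, of which Actn2 was higher than Tbr1 in both libraries.

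Of the 92 oxidative phosphorylation genes, 86 (93.5%) were open in both libraries, against 12641 (60.8%) of all autosomal protein-coding genes. No gene of the set was open in 1 library alone, while 4.16% of all genes were. The 6 others had no promoter peak in either library, and all 6 belong to the complex IV group. Every gene of complexes I, II, III and V and the somatic cytochrome c gene Cycs was open. In complex IV 13 of 19 genes were open. In bulk tissue such as this, fewer cells that open a promoter and less cutting per cell cannot be told apart.

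Most promoter heights of the open genes lay above the middle of the range of all open promoters. Their median was 4.38 in replicate 1 and 4.57 in replicate 2, against 3.09 and 3.03 over all 12641 open promoters. The median gene stood at percentile 64.8 of all open promoters in replicate 1 and 67.3 in replicate 2. Heights above the median in both libraries were found for 65 of 86 genes (75.6%), against 47.3% of all open promoters. The lower end of the range was nearly empty: 1 gene (1.16%), Ndufc2, was below percentile 25 in both libraries, against 22.3% of all. The upper end was not: 8 genes (9.30%) stood in the top decile in both libraries, against 9.01% of all. Those 8 were Uqcrq, Atp5g1, Ndufa13, Ndufb5, Ndufa11, Cycs, Ndufv1 and Ndufaf8. In replicate 1 the peaks of Ndufa13 and Ndufa11 lay 663 and 567 bp from their own starts. Within 150 bp of a start, Ndufa13 was 1.15 and 1.03 high and Ndufa11 4.20 and 4.09. The lower quartile of highest peaks over all open promoters was 1.58 in both libraries, above those values of Ndufa13. Counts at both ends thus rest on highest peaks within 1000 bp, which can lie away from the start.

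**Figure D1:**
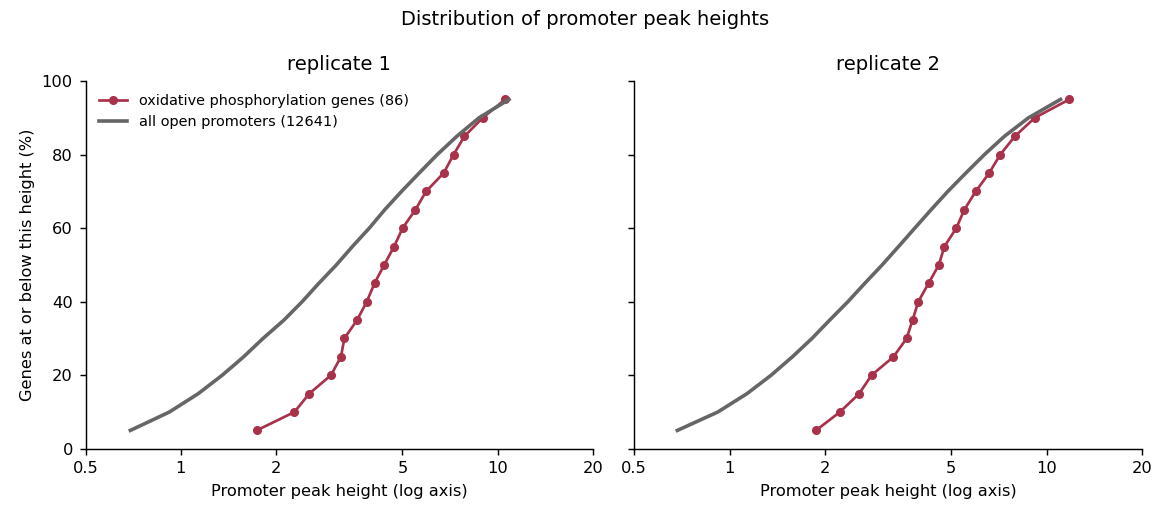
Share of genes (vertical axis, percent) at or below each promoter peak height (horizontal axis, log scale, the authors' signal value) in replicates 1 and 2, for the 86 open oxidative phosphorylation genes (red) and all 12641 open promoters (grey). The curves lie apart at low and middle heights, with medians of 4.38 against 3.09 in replicate 1, and meet near the top.

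The libraries differed little for most of these genes. The log2 ratio of replicate 2 over replicate 1 had a median of 0.02 and ran between -0.43 and 0.80. The largest ratios were those of Ndufaf6 at 0.80, Ndufb2 at 0.59 and Ndufaf8 at 0.51. The smallest were those of Uqcrb at -0.43, Ndufab1 at -0.41 and Ndufa5 at -0.31. The median size of the log2 ratio, with its sign dropped, was 0.14 for the oxidative phosphorylation genes and 0.15 for all open promoters.

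**Figure D2:**
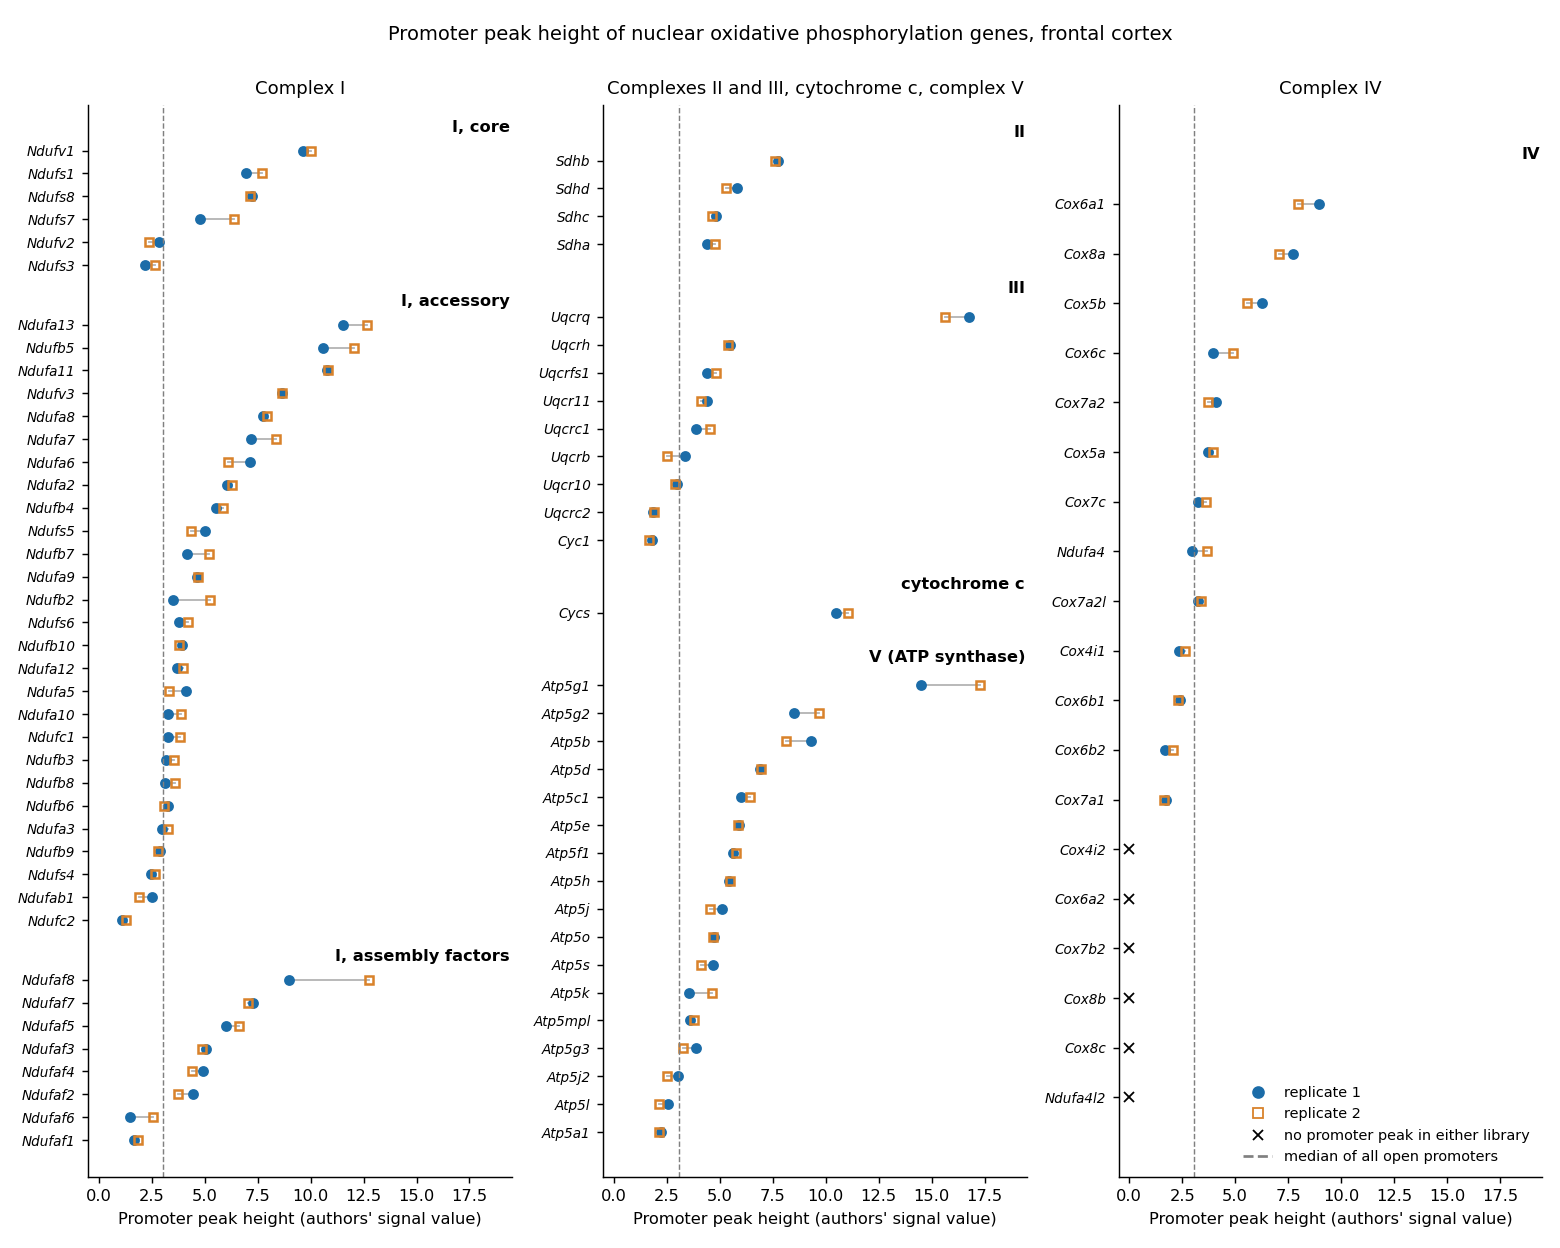
Promoter peak height (horizontal axis, the authors' signal value) by gene and complex, leaving out a gene not reported by name, in replicate 1 (filled circles) and replicate 2 (open squares), with a cross for genes without a promoter peak in either library. The dashed line is the mean of the medians of all open promoters in both libraries; the tallest promoters are Uqcrq at 16.8 and 15.6 and Atp5g1 at 14.5 and 17.3, and the 6 crosses are all in complex IV.

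Cytochrome c, the soluble carrier between complexes III and IV, comes from Cycs on chromosome 6 (50562563 to 50566538, minus strand). Its promoter was 10.5 high in replicate 1 and 11.03 in replicate 2, a mean of 10.7 ± 0.399 (SD, n = 2), at percentiles 94.3 and 94.9. Its peak covered the annotated start and held 6 footprints in each library. The stretch chr6:50566592-50566768 (mm10, minus strand) is shown because it held 2 matches to fixed motifs, both in a footprint of both libraries. The capitals mark, in the order of reading, a match to the cyclic AMP response element (CRE, letters TGACGTCA) 196 bp before the start and a match to the NRF1 motif (letters GCGCATGCG, read here on the other strand) 88 bp before it.
Cycs: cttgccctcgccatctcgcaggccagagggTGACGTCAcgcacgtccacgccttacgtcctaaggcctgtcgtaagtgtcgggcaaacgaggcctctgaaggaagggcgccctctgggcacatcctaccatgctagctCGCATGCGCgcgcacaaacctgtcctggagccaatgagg
As background, NRF-1 takes its name from work on the rat cytochrome c promoter, and binding sites for CREB were described there too. The match is one of letters and of position inside a footprint, and does not show which protein was bound. The testis cytochrome c gene Cyct, outside the symbol rule, had no promoter peak in either library.

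Complex I takes electrons from NADH, and all 42 of its genes were open. The 7 core subunits, which hold the electron path, had a median height of 6.97 in replicate 1 and 7.14 in replicate 2. Ndufv1, the flavin-carrying subunit that binds NADH, was the tallest at 9.63 and 10.04. Ndufs1, which carries several iron-sulfur clusters, was 6.97 and 7.72 high, and Ndufs8, another iron-sulfur subunit, 7.25 and 7.14. Ndufs7, which carries the last cluster before the quinone, stood at 4.76 and 6.37. The lowest were Ndufv2, an iron-sulfur subunit, at 2.85 and 2.36, and Ndufs3, a core subunit of the peripheral arm, at 2.17 and 2.64. Promoters of these core subunits thus split into 5 above the median of all open promoters in both libraries and 2 below it in both.

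The 27 accessory subunits had a median height of 3.93 in replicate 1 and 4.20 in replicate 2, and 22 of them were above the median of all open promoters in both. The tallest peaks were assigned to Ndufa13, also known as GRIM-19, at 11.5 and 12.6, to Ndufb5 of the membrane arm at 10.6 and 12.04, and to Ndufa11 at 10.8 and 10.8. For Ndufa13 and Ndufa11 the height does not describe the start itself. The peak of Ndufa13 ended 663 bp from its nearest annotated start and 509 bp from that of Yjefn3, and the peak within 150 bp of a start of Ndufa13 was 1.15 in replicate 1 and 1.03 in replicate 2. The peak of Ndufa11 lay 567 bp from its start, on a start of the divergent gene Vmac, and within 150 bp of its own start the height was 4.20 and 4.09. At the low end were Ndufc2 of the membrane arm at 1.09 and 1.28, and Ndufab1, the mitochondrial acyl carrier protein, at 2.50 and 1.88. Ndufs4, a subunit whose loss in mice causes a Leigh-like brain disease, was 2.46 and 2.64 high.

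The 8 assembly factors of complex I, which help to build it and do not stay in it, had median heights of 5.01 and 4.66. Ndufaf8 was the tallest at 8.97 and 12.8, the widest gap in height between the libraries of any open gene in the set. In human cells its product is the partner of that of Ndufaf5, an enzyme that hydroxylates Ndufs7, and Ndufaf5 stood at 6.03 and 6.64. Ndufaf7, a methyltransferase in human cells, was 7.27 and 7.06 high. The lowest were Ndufaf1, an early assembly factor, at 1.67 and 1.84, and Ndufaf6 at 1.48 and 2.59. Ndufaf6 was the gene with the largest ratio between the libraries in the whole set.

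Complex II, the succinate dehydrogenase shared with the citric acid cycle, had 4 open genes of 4, each above the median of all open promoters in both libraries. Sdhb, the iron-sulfur subunit, was 7.76 and 7.61 high. Sdhd and Sdhc, the membrane anchors, were 5.83 and 5.30 and 4.80 and 4.62 high. Sdha, the flavoprotein, stood at 4.37 and 4.78, the lowest in replicate 1 only. Sdhb and Sdhd came first in both libraries, while Sdhc and Sdha changed places.

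Complex III had 9 open genes of 9, with median heights of 3.87 and 4.12 and a wide spread. Uqcrq, a small subunit of the membrane part, had the tallest promoter of the set in replicate 1, at 16.8 and 15.6 (mean 16.2 ± 0.830, SD, n = 2). That peak lay on a start of the divergent gene Gdf9, an oocyte growth factor, and ended 70 bp from the start of Uqcrq, so its height cannot be given to 1 of the pair. Uqcrh, the hinge protein, followed at 5.48 and 5.38, with its peak on a start of Lrrc41 and a height of 3.94 and 3.77 within 150 bp of its own start. Uqcrfs1, the Rieske iron-sulfur protein, was 4.38 and 4.81 high. The lowest were Cyc1, the cytochrome c1 subunit, at 1.78 and 1.68, and Uqcrc2, a core protein, at 1.86 and 1.87. Its partner core protein Uqcrc1 was 3.87 and 4.52 high, above Uqcrc2 in both libraries. For Uqcr10 the highest peak differed between the libraries. It lay beside the neighbour Zmat5 at 2.97 in replicate 1 and over the start of Uqcr10 at 2.86 in replicate 2, so no mean was formed.

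Complex V had 17 open genes of 17, with median heights of 5.11 and 4.68. Its membrane ring is made of c subunits, which come from 3 genes known to encode the same mature protein behind different import signals. Their promoters differed in height. Atp5g1 stood at 14.5 and 17.3, Atp5g2 at 8.49 and 9.70, and Atp5g3 at 3.86 and 3.28, in the same order and without overlap in both libraries. The catalytic beta subunit gene Atp5b was 9.31 and 8.12 high. Its alpha partner Atp5a1, which the enzyme holds in equal number, was the lowest of the complex at 2.21 and 2.13. In the central stalk, Atp5d (delta) stood at 6.91 and 6.96, Atp5c1 (gamma) at 5.98 and 6.44 and Atp5e (epsilon) at 5.89 and 5.86. Atp5l, the g subunit of the membrane part, was low at 2.56 and 2.14.

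Complex IV, cytochrome c oxidase, was the complex with closed genes. Its 13 open genes had median heights of 3.24 and 3.69. The tallest were Cox6a1 at 8.94 and 7.96 and Cox8a at 7.75 and 7.09, the widely expressed forms of small subunits at the membrane part. Cox5b, a zinc-binding subunit on the matrix side, was 6.25 and 5.55 high. Cox4i1, the widely expressed form of the largest nuclear subunit, was 2.35 and 2.62 high and so below the median of all open promoters in both libraries. Cox6b1, an intermembrane-space subunit, stood at 2.39 and 2.31.

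Several complex IV subunits have a second gene that is used in few tissues, and this group held all 6 genes without a promoter peak. Cox6a2 and Cox8b are known for heart and skeletal muscle, Cox8c and, in human, Cox7b2 for testis, Cox4i2 for lung, and Ndufa4l2 as a gene induced at low oxygen. None of the 6 had any base with a false discovery rate below 0.05 in the deposited cut rate tracks within its promoter, in either library. That also held for 96.9% of all 7275 genes without a promoter peak. The paired genes were all open. Cox6a2 was closed beside Cox6a1 at 8.94 and 7.96, Cox8b and Cox8c beside Cox8a at 7.75 and 7.09, and Cox4i2 beside Cox4i1 at 2.35 and 2.62. Ndufa4l2 was closed beside Ndufa4, now counted with complex IV, at 2.96 and 3.69. Cox7b2 has its partner Cox7b on the X chromosome, and the related autosomal gene Cox7c was 3.22 and 3.61 high.

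Other restricted forms were open. Cox7a1, the heart and muscle form, was 1.72 and 1.64 high, against 4.07 and 3.73 for the widely expressed Cox7a2, which was taller 2.37 times in replicate 1 and 2.27 times in replicate 2. Cox6b2, known from testis, was 1.70 and 2.05 high, against 2.39 and 2.31 for Cox6b1, a ratio of 1.41 and 1.13. Their values did not overlap across the libraries in either pair, though Cox6b2 and Cox6b1 lay close. Both restricted genes had a peak over their own start and footprints in both libraries, 4 in replicate 1 and 3 in replicate 2 for each. Their percentiles among open promoters were 27.7 and 26.6 for Cox7a1 and 27.2 and 34.6 for Cox6b2. Of 6 markers of heart and skeletal muscle, 3 were open in both libraries at low heights, Actn2 at 1.53 and 1.32, Myh7 at 1.19 and 1.26 and Ckm at 1.02 and 1.21. Myh6, Tnnt2 and Tnni3 had no promoter peak. Of 5 markers of testis 1 was open, Dazl at 1.349 and 1.501. The part of such cells in these results was not tested.

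**Figure D3:**
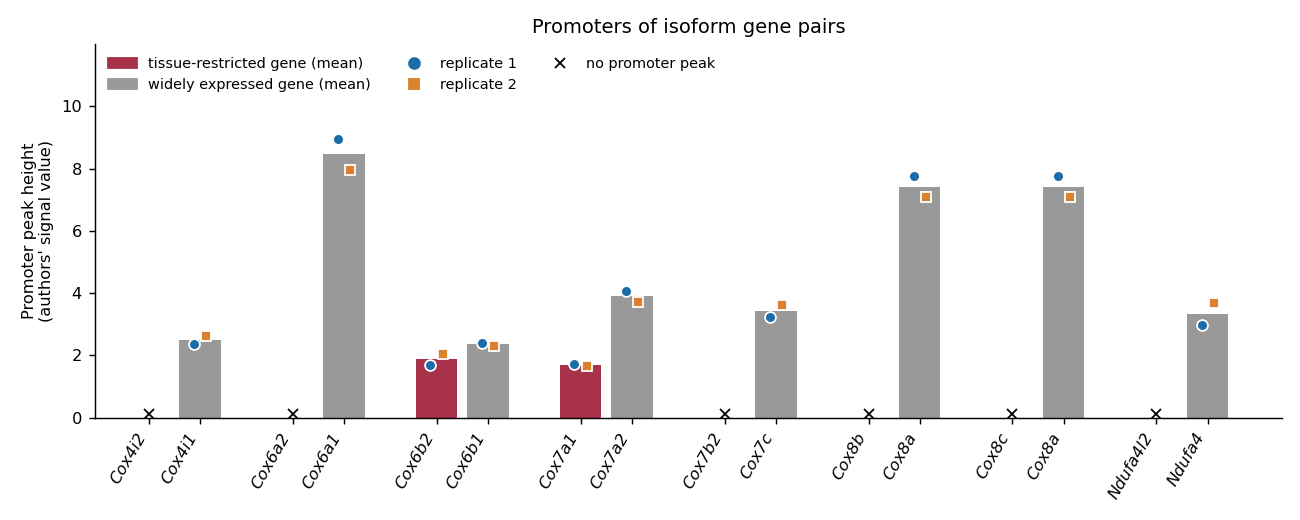
Promoter peak height (vertical axis, the authors' signal value) for 8 pairs of a tissue-restricted gene (left of each pair) and a widely expressed gene (right). The gene on the right is the partner form, except that Cox7b2 stands beside the related autosomal gene Cox7c. The partner of Cox7b2, Cox7b on the X chromosome, is not shown and was 1.71 and 1.17 high. Bars are means of both libraries, points are replicates 1 and 2, and crosses are genes without a promoter peak; Cox7a1 and Cox6b2 are the restricted genes that were open, at 1.72 and 1.64 and at 1.70 and 2.05.

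The closed genes lay at different distances from the next peak. The nearest peak to a start of Ndufa4l2 was 1827 bp away and 3.91 and 4.46 high, near the medians of the open genes of the set. It was 1914 and 1924 bp away for Cox6a2, at 0.645 and 0.617, and 2855 and 2875 bp away for Cox8b, at 0.967 and 1.10. It lay 11518 and 11480 bp away for Cox4i2, on opposite sides in the libraries, and 13276 bp away in both for Cox8c. For Cox7b2 it was 45885 and 45924 bp away.

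CpG dinucleotides, which are dense in many promoters of widely used genes, were counted around each start. In the 300 bases from 250 before to 50 after the 5′-most start, the 6 closed genes had a median of 7.5 CpG dinucleotides and the 86 open genes 17. Over all genes these medians were 3 for closed and 19 for open promoters. The counts of open and closed genes of the set overlapped, as the closed ones reached 16 and the open ones began at 1. A gene was called open by a peak near any of its starts, not only the 5′-most. Cox6a2 and Cox8b had 2 CpG each and Ndufa4l2 had 5, against 30 in Cox6a1, 19 in Cox8a and 14 in Ndufa4. The closed Cox7b2 had 10, more than the 6 of the open Cox7c. Cox8c had 10 and Cox4i2 had 16, against 48 in Cox4i1, and at 10 to 19 most genes are open. Among genes with 10 to 19 CpG, 39 of 42 oxidative phosphorylation genes were open, against 82.4% of all. With 5 to 9 CpG the counts were 8 of 9 against 50.7%, and with 20 or more they were 35 of 35 against 91.0%. With 2 to 4 CpG 3 of 5 were open, namely Cox7a2l, Ndufa5 and Atp5f1, against 23.5%, and the 1 gene with 0 or 1 CpG, Atp5j2, was open, against 8.92%. The highest peaks of Cox7a2l, Ndufa5, Atp5f1 and Atp5j2 lay outside the 300 bases counted. Their low counts therefore do not describe the sequence under those peaks.

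**Figure D4:**
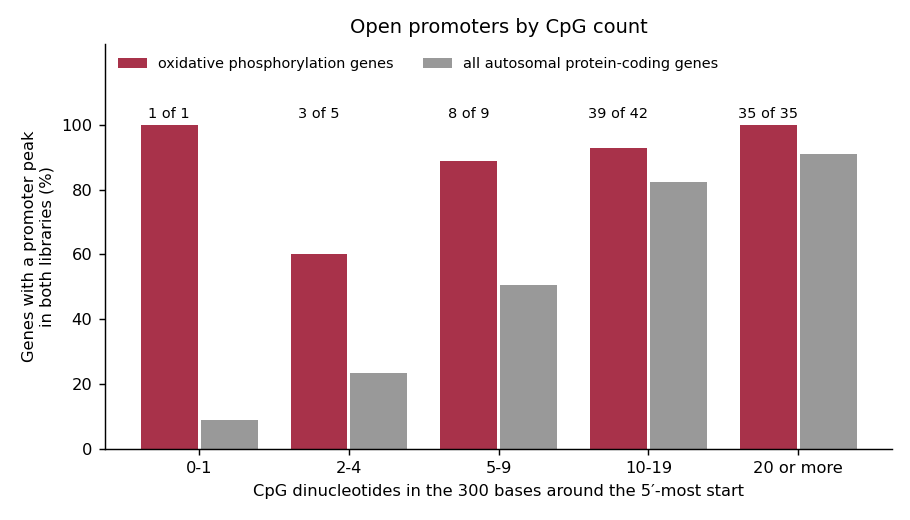
Share of open genes (vertical axis, percent) by the number of CpG dinucleotides around the 5′-most start (horizontal axis), for oxidative phosphorylation genes (red, counts above) and all autosomal protein-coding genes (grey). The share of all genes climbs over the bands, at 8.92% in the lowest and 91.0% in the highest, and 35 of 35 oxidative phosphorylation genes with 20 or more were open.

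The 120 bases before the RefSeq start show the range of CpG counts for open and closed forms of complex IV subunits. They are from the RefSeq promoter table (GRCm38.p6), in which 72 of the 92 genes were found, and CpG is in capitals. They lie at chr7:140900447-140900566 for Cox8b, chr19:7217617-7217736 for Cox8a, chr5:71548206-71548325 for Cox7b2 and chr5:115348959-115349078 for Cox6a1, all on the minus strand. Cox8b held 1 CpG in this stretch and Cox8a 9, while the closed Cox7b2 held 7 and the open Cox6a1 15. In Cox6a1 the last 23 of these bases are annotated as UTR in GENCODE, whose start lies further upstream.
Cox8b: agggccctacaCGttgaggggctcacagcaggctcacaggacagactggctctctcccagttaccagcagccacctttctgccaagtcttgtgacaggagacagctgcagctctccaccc
Cox8a: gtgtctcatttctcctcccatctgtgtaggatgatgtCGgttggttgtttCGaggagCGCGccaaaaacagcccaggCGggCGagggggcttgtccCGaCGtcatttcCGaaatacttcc
Cox7b2: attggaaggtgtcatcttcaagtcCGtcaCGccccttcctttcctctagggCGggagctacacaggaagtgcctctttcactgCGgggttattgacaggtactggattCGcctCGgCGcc
Cox6a1: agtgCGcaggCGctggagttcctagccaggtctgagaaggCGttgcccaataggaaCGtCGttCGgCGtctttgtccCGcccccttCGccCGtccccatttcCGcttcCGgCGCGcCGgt

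Many of these promoters lay near a start of another gene. The highest peak lay within 1000 bp of a start of another protein-coding gene for 33 of 86 genes (38.4%), against 20.6% of all open promoters. For 29 (33.7%) that neighbour was divergent, reading the other way from a start close by, against 15% of all. The median gap between divergent starts was 93 bp, against 106 bp over all such pairs. Ndufs1 and Eef1b2, a translation elongation factor, began 3 bp apart. Ndufa7 and the ribosomal protein gene Rps28 began 10 bp apart, Ndufb9 and Tatdn1 18 bp, and Sdha and Ccdc127 29 bp. Sdhd began 98 bp from Timm8b, which encodes a chaperone of the mitochondrial intermembrane space. The promoter of Atp5j, the F6 subunit of the stalk, was also that of Gabpa, which encodes the DNA-binding subunit of GABP, and its peak was 5.11 and 4.53 high. Ndufs6 and Ndufb5 had starts of the mitochondrial ribosome genes Mrpl36 and Mrpl47 within 1000 bp of their peaks. A height in such a region was not divided between the genes, and not every such peak lay on both starts. In replicate 1 the peak of Atp5d covered its own start and lay 506 bp from that of Cbarp. For 5 genes (5.81%) the peak was nearer to the neighbour, against 4.68% of all, and the peak covered a start of the gene itself for 77 (89.5%), against 72% of all.

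Footprints were found in both libraries in all 86 open promoters, against 94.9% of all open promoters. Peaks of oxidative phosphorylation genes held a median of 4 footprints in replicate 1 and 5 in replicate 2, the same as over all open promoters. Per 100 bp of peak the median was 1.82 and 2.00, against 1.67 and 1.82 over all. Footprints covered a median of 28.9% and 32.5% of the peak, against 23.7% and 26.5%. Of 394 footprints in replicate 1, 322 (81.7%) overlapped one of replicate 2 by at least 1 bp, against 74.6% over all open promoters. Of 455 in replicate 2, 328 (72.1%) overlapped one of replicate 1, against 62.3%. Replicate 2 had more footprints in all, so the shares are given for each library. The peaks of the set were also higher, with medians of 4.38 and 4.57 against 3.09 and 3.03 over all open promoters. Neither the footprints nor the motif matches in them were compared at matched heights, so a part of peak height in these differences was not tested.

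The most footprints, over both libraries together, were in the peaks of Cox4i1, with 8 in replicate 1 and 12 in replicate 2. Ndufaf8 had 8 and 9, Atp5f1, the b subunit of the stator, 7 and 9, and Ndufs1 and Atp5j 8 and 8 each. Cox4i1 had the largest number although its peak was among the lower ones, and the peak was 500 and 420 bp wide, against a median of 240 bp in both libraries for the set. In Ndufs1 the 8 footprints lay in 240 bp. The fewest were in Cox6b1, with 1 in each library. Single counts could move much between libraries, as in Ndufs7 with 11 and 4 and Ndufc2 with 1 and 7.

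Fixed motifs were searched on both strands in the 300 bp centred on each open promoter region, joined over both libraries. This gave 85 regions of oxidative phosphorylation genes and 10695 others. The NRF1 motif GCGCATGCG was in 12 regions (14.1%), against 4.12% of the others and 4.2% of all. With its middle letter free (GCGCANGCG, which includes the first form) it was in 26 regions (30.6%), against 15.8% of the others and 15.9% of all. The YY1 motif AAGATGGCG was in 11 (12.9%), against 3.49% and 3.56%. CRE was in 7 (8.24%), against 4.13% and 4.17%. The GC box GGGGCGGGG was in 12 (14.1%), against 21.9% and 21.8%, and the median GC content within 1000 bp of the 5′-most start was 50.9% for open genes of the set and 53.7% for all open genes. The ETS motif CCGGAAGT was in 8 (9.41%), against 8.65% of the others and 8.65% of all, and ATTGGCTG, a form of the CCAAT box, in 6 (7.06%), against 6.87% and 6.87%. TCAAGGTCA, the motif of estrogen-related receptors, was in 2 regions, Sdhd and Atp5g3, against 0.159% and 0.176%. Of the 85 regions, 48 held at least 1 of the 7 motifs, leaving out the NRF1 form with a free letter, and 37 held none. No matches of different motifs overlapped. These counts were not made over the other regions, so no background stands beside them.

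Motifs differed in how often their matches lay in a footprint. For NRF1, the middle base was in a footprint of both libraries in 11 of 12 matches (91.7%), against 78.5% in the other regions. These were in Ndufa13, Cycs, Atp5g2, Cox6a1, Ndufa8, Ndufaf5, Ndufaf4, Cox6c, Uqcrc1, Atp5k and Atp5l, and the match of Uqcr11 lay in one of replicate 2 only. The match of Ndufa13 was in the peak away from its own start. As a control of the letters, the NRF1 form with a free middle written in reversed order (GCGNACGCG) was in 8 regions (9.41%), against 6.20% of the others, and 7 of those 8 matches lay in footprints of both libraries, against 55.8%. In the motif's own order 31 of 35 matches did (88.6%), against 67.3%. CRE matches lay in footprints of both libraries in 6 of 7 cases, against 75.3%, in Ndufa11, Cycs, Atp5d, Uqcrfs1, Ndufb2 and Ndufa10. GC box matches did in 13 of 15, against 63.4%, among them those of Uqcrq, Atp5g2 and Atp5b. The share was lower for YY1, with 5 of 12 (41.7%), in Ndufaf8, Uqcrh, Atp5j and Ndufc1, against 22.1%, and for ETS, with 1 of 9 (11.1%), in Ndufs1, against 23.9%. The differences for YY1, ETS and the GC box depend on how a match is placed. With the whole match inside the footprint the shares were 8.33% for YY1 in either kind of region, and 11.1% against 9.83% for ETS. For the GC box they were 53.3% against 48.2%, for NRF1 75% against 63.7% and for CRE 85.7% against 62.7%. With the shorter ETS letters CCGGAAG, chosen after seeing the data, the share by middle base was 23.1%, against 20%. By middle base it was 1 of 7 for the CCAAT box, in Ndufb3, against 15.3%, and 0 of 2 for the estrogen-related receptor motif, against 11.8%. Of 338 footprints of replicate 1 shared with replicate 2 in these regions, 59 (17.5%) held the middle of a match to any of the motifs. That share was not taken over the other regions.

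**Figure D5:**
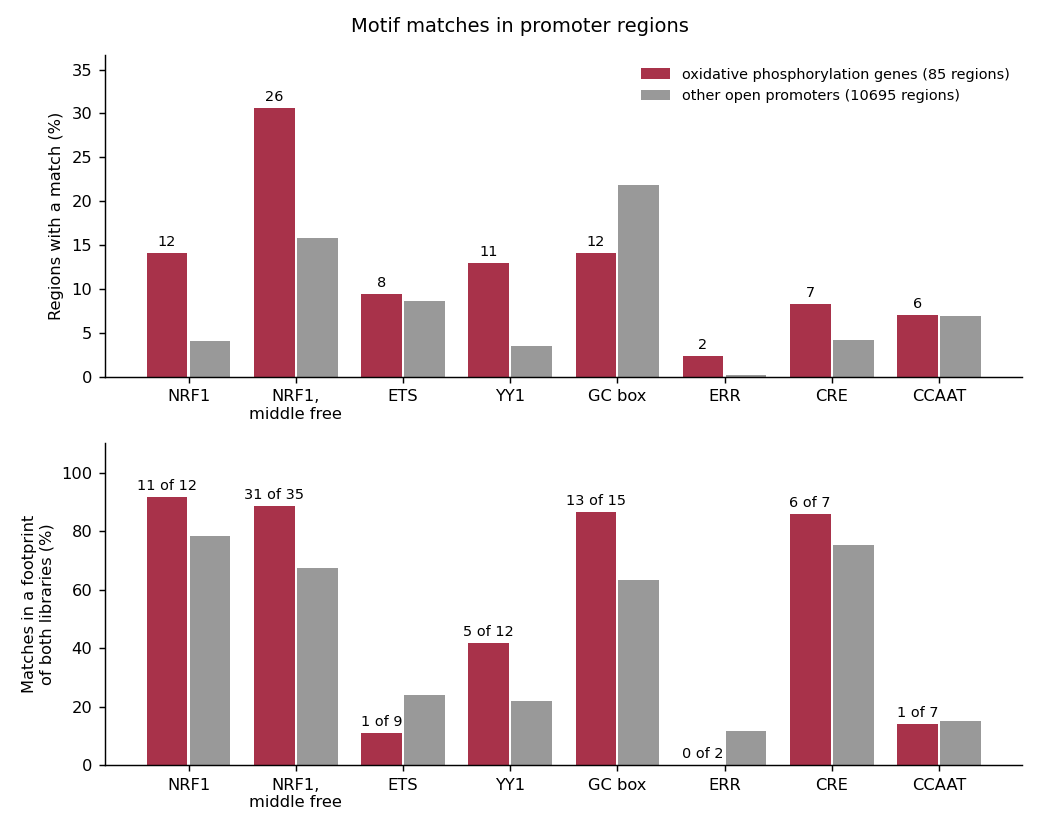
Upper plot: share of promoter regions with a match (vertical axis, percent) for each motif, in 85 regions of oxidative phosphorylation genes (red, counts above) and 10695 other open regions (grey). Lower plot: share of matches (percent) whose middle base lay in a footprint of both libraries; NRF1, CRE and GC box matches were mostly in footprints (11 of 12, 6 of 7 and 13 of 15), ETS and CCAAT matches mostly not (1 of 9 and 1 of 7).

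Most YY1 matches lay near the start and read in the direction of the gene, as did most of those in the other regions. Of 12 matches 10 lay within 100 bp of a start of their gene, against 84.9% in the other regions, and 10 read in the direction of the gene, against 76.0% of the others. The exceptions on both counts were the pair in Uqcrh, 293 and 339 bp before its nearest start, on the side of Lrrc41. NRF1 matches were within 100 bp of a start in 8 of 12 cases, against 71.3%, and all 9 ETS matches were, against 82.2%. In Atp5j, the gene beside Gabpa, an ETS match lay 29 bp before 1 annotated start and a YY1 match 55 bp before another start farther upstream. Of these the YY1 match alone had its middle base in footprints.

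Examples of matches whose middle base lay in a footprint of both libraries are given with 25 bases on each side of that base. The motif is in capitals, read in the direction of the named gene (mm10). The whole YY1 match of Atp5j was not inside a footprint in either library, and the whole CCAAT match of Ndufb3 was inside one in replicate 2 only. They are shown because they let the motif be read beside its own context, 1 for each of 5 motifs, in genes with an entry in the RefSeq table. The NRF1 example lies at chr5:115349090-115349140 (minus strand), 134 bp before a start of Cox6a1. The YY1 example at chr16:84835035-84835085 (minus strand) is that of Atp5j and Gabpa. The CRE example at chr17:56716975-56717025 (plus strand) lies in the peak on a start of Vmac, upstream of Ndufa11. The GC box at chr10:128083239-128083289 (plus strand) lies 9 bp before a start of Atp5b. The CCAAT box at chr1:58586322-58586372 (plus strand) lies 37 bp before a start of Ndufb3, a membrane arm subunit of complex I.
Cox6a1, NRF1: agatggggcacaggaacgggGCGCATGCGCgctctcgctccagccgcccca
Atp5j, YY1: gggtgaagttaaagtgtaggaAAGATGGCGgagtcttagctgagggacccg
Ndufa11, CRE: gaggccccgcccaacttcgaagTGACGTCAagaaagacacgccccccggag
Atp5b, GC box: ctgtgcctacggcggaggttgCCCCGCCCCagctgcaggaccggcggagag
Ndufb3, CCAAT: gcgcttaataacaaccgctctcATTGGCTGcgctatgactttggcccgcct

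Most other genes of energy metabolism on fixed lists were open too. Of 41 autosomal electron transport genes outside the symbol rule, mainly assembly factors, 39 (95.1%) were open, with medians of 4.37 and 4.45. The tallest were Pet100, a complex IV assembly factor, at 13.6 and 13.6, and Tmem126b, a complex I assembly factor, at 11.9 and 11.3. The exceptions were Cyct and Sdhaf1, a complex II assembly factor. All 14 genes of the citric acid cycle list were open, with medians of 5.79 and 5.36, and all 78 genes of mitochondrial ribosome proteins, with medians of 3.55 and 3.33. Of 20 glycolysis genes 16 (80%) were open, with medians of 3.74 and 3.45. Eno3, Pklr and Ldhc, forms known from muscle, liver and testis, had no promoter peak, and the neuronal enolase gene Eno2 had one in replicate 1 alone, at 1.27. The background for these counts is the same 60.8% of all genes.

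All 18 autosomal regulators on the list were open. Sp1 at 16.5 and 19.3 and Esrra, an estrogen-related receptor, at 16.6 and 16.5 were the tallest. Yy1 stood at 7.74 and 7.81, Gabpa at 5.11 and 4.53 and Nrf1 at 3.67 and 2.88. Tfam, which packages mitochondrial DNA and takes part in its transcription, was 4.69 and 4.24 high. The lowest were Esrrg at 0.609 and 0.692, Esrrb at 0.776 and 0.517 and Ppargc1a, a coactivator of the pathway, at 0.740 and 0.642, whose highest peaks lay at different places in the libraries.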

How the data were processed

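DNase-seq libraries of 2 samples in 1 group were used. The authors deposited, per library, peak lists whose height is a signal value on a scale that was not stated, footprints, and a cut rate track with a false discovery rate, a q-value kind of unit, all in mm10 per the labels. The aligner, the callers and their versions are not given in the sources used here. Every deposited signal value was a whole multiple (within 0.05 steps) of 0.0119 in replicate 1 and 0.00834 in replicate 2, so replicate 1 had the coarser scale. The track covered 22.3 Mb of bases below 0.05 in replicate 1, and replicate 2 had 24.8 Mb of them. Peaks of the longer lists all held such a base, and peaks of the shorter lists one below 0.001. Each deposited footprint has the same p-value or q-value, 0.01, so none had a strength of its own. Read totals were not used, so no counting interval is given, and the gap between the libraries is the only measure of error. Reads of a hybrid may map less well at variants of the strain that differs from the assembly, which was not tested.

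Start sites were all those of GENCODE M21 transcripts. The 92 symbols cover 93 gene identifiers, as Atp5o has 2. Peaks were assigned to every gene within 1000 bp. Motifs were searched in the GRCm38.p6 genome, the files' own assembly. The overlap code was tested on simulated data. Python 3.11.15, pandas 2.3.3, numpy 2.4.6, pysam 0.24.0, samtools 1.23.1 and matplotlib 3.10.9 were used. With 1 group there was no test, and shares are set beside the same share over all genes. The rule for named genes was every member closed in either library, the 2 highest and 2 lowest of each complex or role (all of a group of 6 or fewer), every gene of the isoform pairs, the 3 largest and 3 smallest ratios of the libraries, the 5 with most footprints, and up to 3 per motif with a match in footprints of both libraries; the other genes named were chosen after their values were seen. A gene of the set and a marker gene are counted but not reported here by name. The members and lists were chosen with earlier results of these data known. The alternatives were the shorter list, other windows, the 5′-most start, 1 library left out, a height threshold, other overlaps and other ways to place a motif.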

Additional observations from a re-analysis of the deposited data

How the results depend on the processing

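The count of open genes was 86 in the main setting, against 12641 of all 20780 genes. It was 84 with the 5′-most start alone, against 11610, and 85 with the shorter list, against 11231. With a 50% overlap of the peaks it was 85, against 11829, and with 2000 bp 88, against 13086. At 2000 bp Cox6a2 and Ndufa4l2 gained a peak and 4 restricted isoform genes stayed closed. The median height over that of all open promoters, 1.46 with both libraries averaged, was 1.29 with the shorter list, 1.38 with 150 bp and between 1.46 and 1.59 with 1 library left out. The median height, 4.47 on that scale, was 4.29 with 150 bp. When the whole match had to lie in the footprint, YY1 matches in footprints of both libraries numbered 1, against 5, GC box matches 8, against 13, and CCAAT matches 0, against 1. As shares this was 8.33% for YY1, the same as in the other regions, so the difference by middle base (41.7% against 22.1%) was gone. For the GC box it was 53.3%, against 48.2% in the other regions, in place of 86.7% against 63.4%. The ETS share turned above that of the others, 11.1% against 9.83%, in place of 11.1% against 23.9%. CCAAT matches numbered 2 (25%, against 14.3% in the other regions) in the peaks themselves, in place of 14.3% against 15.3%, and between 2 and 4 with 1 library left out. A shorter ETS motif, CCGGAAG, was in 21 regions (24.7%), against 18.7% of the others, and in footprints of both libraries for 6 of 26 matches (23.1%), against 20% of the others. The 150 bp window and this motif were chosen after seeing the data. The causes were not tested. Footprint sharing has no value with 1 library left out. No paired analysis was possible because there was 1 group. With 2 libraries and no read totals, small differences between single heights cannot be ordered.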

Other observations

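Genes of the same families outside the rule were measured the same way. On the X chromosome, Ndufb11 of the complex I membrane arm had a promoter peak of 3.15 in replicate 1 and 3.34 in replicate 2, Ndufa1, another membrane arm subunit, 2.40 and 1.51, and the complex IV gene Cox7b 1.71 and 1.17. These 3 genes were all open, on a chromosome that males carry once. Ndufb1-ps, annotated as a non-coding transcript on chromosome 12, had a peak of 1.37 and 2.07.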
